A study of Mus musculus with 18 samples.

Results

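Endoplasmic reticulum chaperones fold and retain newly made secretory and membrane proteins. The 10 genes examined were Hspa5, Hsp90b1, Pdia3, Pdia4, Pdia6, Calr, Manf, Sdf2l1, Hyou1 and Herpud1, picked by symbol and not by a threshold on measured values. Every probe set annotated to exactly 1 of these symbols was taken, 21 in all, with the brightest by mean value standing for its gene and the others used as a check. All 10 genes were found among the 18194 genes with such a probe set, and 9 were bright enough to be among the 10916 genes tested. Sdf2l1 was too dim and is described by its values.

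The arrays measured RNA of the whole brain from mouse pups on postnatal day 8. Pups were wild-type C57BL/6J (+/+), heterozygous (+/-) or homozygous (-/-, Mt-KO, here also called knockouts) for a metallothionein knockout backcrossed to C57BL/6J for at least 7 generations, with a last mating between siblings. On postnatal days 7 and 8 each pup was injected 2 times per day at an interval of 4 h with lead acetate at 50 mg/kg or, for weight-matched controls, with saline. Tissue was collected 6 h after the final dose. For each genotype and treatment the RNA of 5 male and female pups was pooled and hybridised to 1 Affymetrix 3' expression array, which makes 6 arrays. Since no combination was repeated, a difference between 2 arrays has no replicate check, and the number of arrays limits the precision. In pooled whole brain, fewer cells of a type and less RNA per cell cannot be told apart.

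The targeted gene family followed the labels, with Mt1 at 13.17 and 13.30 (RMA, log2) in the wild-type pools and 11.68 and 11.71 in the knockout pools. Of 8 neuronal markers 8 were bright enough to be tested. The 6 arrays were not alike in ways that touch the chaperones. The median over the genes tested ran from 10.87 on the wild-type lead array to 11.05 on the wild-type saline array, so a difference called relative below is one taken after each array's median was subtracted. The wild-type saline array had the largest excess of the Gapdh 3' over its 5' probe set, 1.19 against 0.54 to 0.82 on the others. The knockout pools differed in sex-linked RNA, although the labels name male and female pups. Eif2s3y measured 6.50 with saline and 11.16 with lead, and Xist 12.75 with saline and 10.23 with lead. In the wild-type and heterozygous pools Eif2s3y ran from 9.45 (wild-type lead) to 10.45 (wild-type saline) and Xist from 11.91 to 12.20. In the knockout pair the sex-linked difference thus goes along with the treatment. The part of these in the results was not tested.

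Hspa5 encodes BiP (GRP78), the main HSP70 of the organelle, which binds unfolded chains, holds the stress sensors inactive and is a known binding target of lead. When unfolded protein accumulates, the sensors IRE1, PERK and ATF6 raise transcription of the chaperones, a programme called the unfolded protein response. Much of that transcription runs through a promoter element named ERSE, a CCAAT box spaced from a CCACG box, and through a variant named ERSE-II. Metallothioneins are cytosolic proteins that bind metals.

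The promoters are shown because these elements are a sequence feature that several of the genes share. RefSeq windows of 250 bases before to 50 after the annotated start (GRCm38.p6) matched 8 of the 10 genes, all but Manf and Hyou1. ERSE was searched as CCAAT, 9 bases of any kind and CCACG, ERSE-II as ATTGG, 1 base of any kind and CCACG, and a looser ERSE as CCAAT, 9 bases of any kind and CCA, on both strands. Every ERSE match is also a match of the looser form. The 215 bases before the start are printed for the genes with a full ERSE (Hspa5, Hsp90b1, Calr and Pdia6), for the gene with an ERSE-II (Herpud1) and for Pdia3, which had the largest lead coefficient of the group. Capitals mark matches of the 3 forms.
Hspa5, chr2:34771875-34772089, plus strand: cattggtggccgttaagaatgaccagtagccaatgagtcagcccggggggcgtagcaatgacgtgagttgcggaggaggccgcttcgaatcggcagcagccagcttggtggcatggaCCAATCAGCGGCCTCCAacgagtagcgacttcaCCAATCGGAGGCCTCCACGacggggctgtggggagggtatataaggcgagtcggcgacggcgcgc
Hsp90b1, chr10:86705445-86705659, minus strand: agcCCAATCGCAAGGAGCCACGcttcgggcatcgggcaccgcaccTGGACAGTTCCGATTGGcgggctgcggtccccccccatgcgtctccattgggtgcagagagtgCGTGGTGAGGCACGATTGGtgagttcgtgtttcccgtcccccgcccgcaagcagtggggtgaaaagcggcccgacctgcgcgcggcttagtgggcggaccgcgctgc
Calr, chr8:84846932-84847146, minus strand: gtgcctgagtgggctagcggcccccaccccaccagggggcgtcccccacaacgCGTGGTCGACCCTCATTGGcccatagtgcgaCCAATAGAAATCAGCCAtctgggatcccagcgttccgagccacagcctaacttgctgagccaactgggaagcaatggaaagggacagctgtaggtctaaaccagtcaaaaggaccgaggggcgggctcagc
Pdia6, chr12:17266374-17266588, plus strand: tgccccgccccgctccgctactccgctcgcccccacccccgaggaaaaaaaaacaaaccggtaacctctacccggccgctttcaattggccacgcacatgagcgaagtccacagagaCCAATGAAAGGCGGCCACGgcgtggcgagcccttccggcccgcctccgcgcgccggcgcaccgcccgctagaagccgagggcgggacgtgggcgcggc
Herpud1, chr8:94386214-94386428, plus strand: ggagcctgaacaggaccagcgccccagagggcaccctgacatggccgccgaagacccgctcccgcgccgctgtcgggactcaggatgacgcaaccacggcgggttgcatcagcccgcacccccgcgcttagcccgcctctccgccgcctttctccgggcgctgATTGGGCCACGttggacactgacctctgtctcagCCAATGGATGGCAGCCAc
Pdia3, chr2:121413687-121413901, plus strand: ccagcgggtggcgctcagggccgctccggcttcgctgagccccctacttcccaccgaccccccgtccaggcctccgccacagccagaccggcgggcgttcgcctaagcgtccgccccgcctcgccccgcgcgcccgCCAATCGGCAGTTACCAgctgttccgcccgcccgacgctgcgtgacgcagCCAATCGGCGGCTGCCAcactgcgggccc

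A full ERSE lay in the windows of 4 of the 8 genes, against 37 of 27025 genes (0.137%) with a window of the same length. Hsp90b1 had 2 full matches, on opposite strands. ERSE-II lay in the window of 1 of the 8, against 12 genes (0.0444%) in all, and the looser form in 7 of the 8, all but Sdf2l1, against 1.25%. The element was originally defined on promoters of such chaperones, so these counts describe the genes and are not independent of how they were chosen. The core TGACGTGG, bound by XBP1 and ATF6, was in 0 of the 8 windows and in 0.714% of all genes.

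No chaperone changed with lead past the threshold. An additive limma fit estimated 1 lead coefficient per gene (log2, 3 lead against 3 saline arrays, within genotypes), and 0 of 9 genes passed a limma adjusted p of 0.05, beside 0.119% of all genes. Each of the 9 had a limma adjusted p of 1. At an unadjusted p under 0.05 there was 1 of 9, Pdia3, and 167 of all 10916. The coefficients ran from -0.11 for Manf to 0.33 for Pdia3 with a median of 0.13, beside 0.022 over all genes, and 7 of 9 were above 0, as were 6628 of all 10916. Taken relative to the array medians, Hsp90b1, Pdia3 and Calr were higher with lead in all 3 genotypes, 3 of 9 genes against 12.7% of all genes, and 0 of 9 were lower in all 3 against 9.85%. As deposited, Pdia3 alone was higher in all 3, 1 of 9 against 8.55%, and Hyou1 alone was lower in all 3, 1 of 9 against 3.89%. The lead and saline values of Hyou1 did not overlap, 1 of 9 genes against 5.27% of all genes, and those of the other 8 overlapped.

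**Figure D1:**
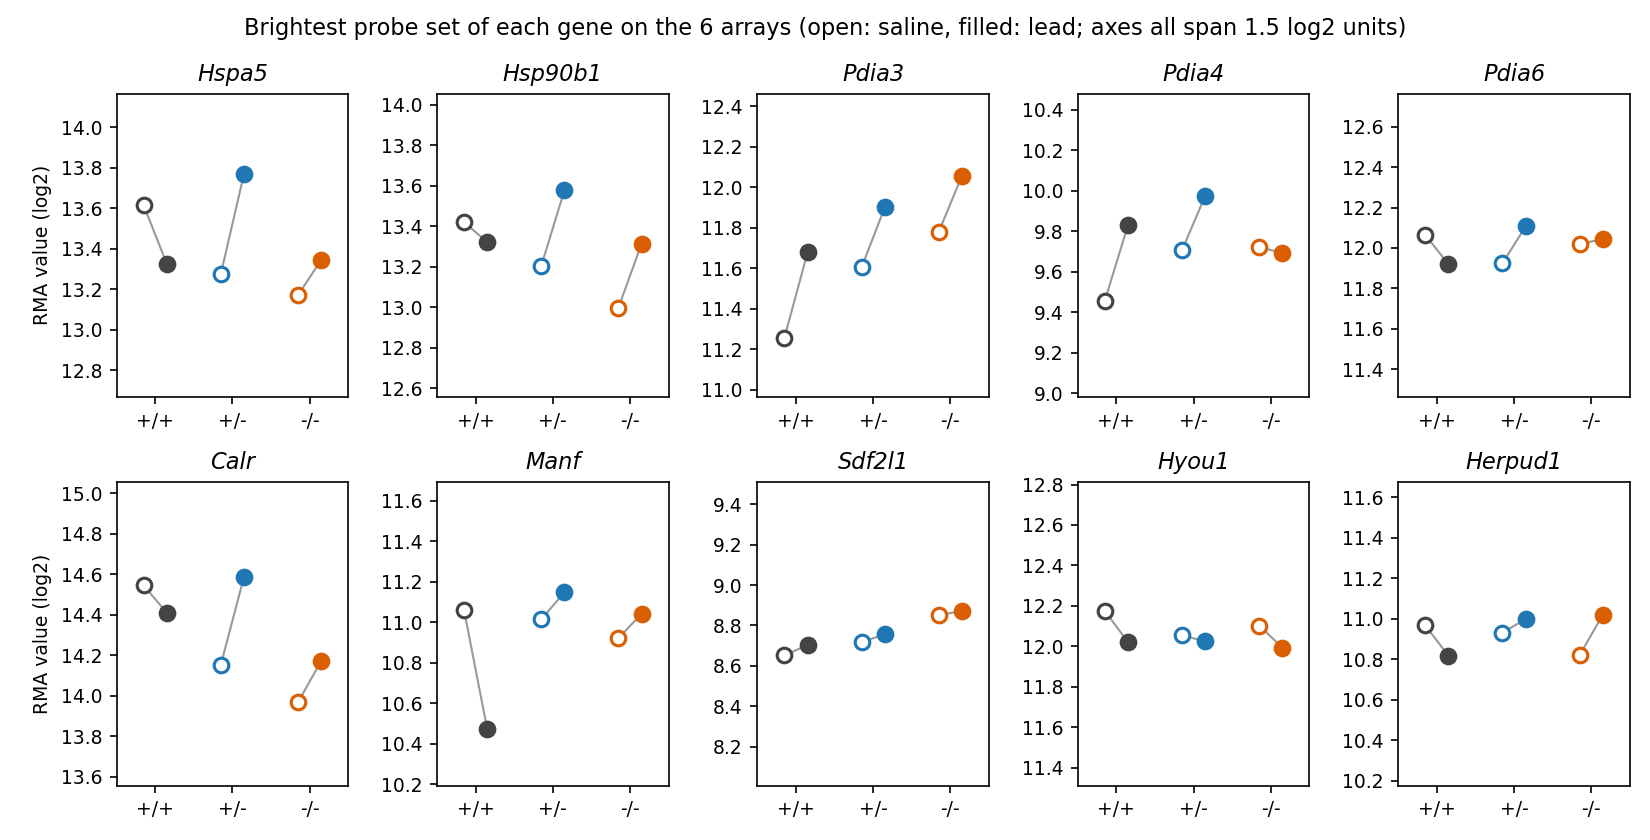
RMA values (log2, y axis) of the brightest probe set of the 10 genes on the 6 arrays by genotype (x axis), with saline and lead as separate points joined within each genotype. Pdia3 is higher with lead in all 3 genotypes, Manf has 1 low value in the wild-type lead pool (10.47), and Hspa5, Hsp90b1 and Calr are highest in the heterozygous lead pool and lowest in the knockout saline pool.

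Hspa5 did not move one way with lead. Wild types gave 13.62 with saline and 13.33 with lead, heterozygotes 13.28 and 13.77, and knockouts 13.17 and 13.35 (RMA, log2). Lead thus lay below saline in wild-type brain and above it in the others. Its lead coefficient was 0.13 (SE 0.24, 95% interval -0.34 to 0.59), an interval that spans both directions. The relative differences were -0.11 in wild types, 0.36 in heterozygotes and 0.081 in knockouts. Its other 2 probe sets gave lead coefficients of -0.054 and 0.16, of unlike sign. Their relative differences in wild types were 0.13 and 0.12, above 0 where that of the brightest was below. Leaving out the wild-type arrays gave 0.33 (limma adjusted p = 0.0415), in a fit that called 2632 genes in all, and leaving out the heterozygous arrays gave -0.058.

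Hsp90b1 encodes GRP94, the HSP90 of the organelle. Wild types gave 13.42 with saline and 13.32 with lead, heterozygotes 13.20 and 13.58, and knockouts 13.00 and 13.31. The heterozygous lead pool was again the highest and the knockout saline pool the lowest. Its lead coefficient was 0.20 (SE 0.23, 95% interval -0.25 to 0.64), and its dimmer probe set gave 0.19. The relative differences, 0.082, 0.24 and 0.22 in the order of the genotypes above, were all above 0. Without the wild-type arrays it passed at 0.34 (limma adjusted p = 0.0242), in the same fit that called 2632 of all 10916 genes.

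Calr encodes calreticulin, a soluble lectin chaperone that also stores calcium in the lumen. Wild types gave 14.55 with saline and 14.41 with lead, heterozygotes 14.15 and 14.59, and knockouts 13.97 and 14.17. Its lead coefficient was 0.17 (SE 0.32, 95% interval -0.46 to 0.80), and its other 2 probe sets gave 0.13 and 0.074, so all 3 lay above 0. The relative differences were 0.046, 0.30 and 0.11, smallest in wild types. With GC-RMA the wild-type pair was 14.90 with saline and 15.20 with lead, the widest of the 3, and the knockout pair ran the other way, 14.94 with saline and 14.79 with lead.

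By their brightest probe sets, Hspa5, Hsp90b1 and Calr moved in parallel across the pools. The other probe sets did so only in part. The dimmer Hsp90b1 probe set was lowest in wild-type saline (10.61) and highest in knockout lead (11.14). For Hspa5, 1 other probe set ran from 12.28 in wild-type saline down to 12.06 in knockout lead. The remaining Hspa5 probe set and the other Calr probe sets were lowest in knockout saline, as the brightest were. Over the 6 arrays, after subtracting the array medians, Pearson's r was 0.87 between Hspa5 and Hsp90b1, 0.87 between Hspa5 and Calr and 0.91 between Hsp90b1 and Calr, given as a description since the points share arrays. Over all 36 pairs of the 9 genes the median r was -0.11 and 15 pairs were above 0. Bright genes in general took a similar course. The brightest 25% of the genes tested, which hold 5 of the 9 (these 3, Pdia6 and Hyou1), deviated from their own means by a median of 0.19 in wild-type saline, 0.15 in heterozygous lead and -0.15 in knockout saline. On the same arrays Hspa5 deviated by 0.20, 0.35 and -0.25, and Calr by 0.24, 0.28 and -0.34. By the same r over 6 arrays the 5 genes most like Hspa5 were Vmp1, Vps35, Atp6ap1, Tpi1 and Ddn (r = 0.99 for Ddn and higher for the others), and Calr and Hsp90b1 ranked 631 and 640 among the 10916. The part of brightness in the parallel course was not tested.

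**Figure D2:**
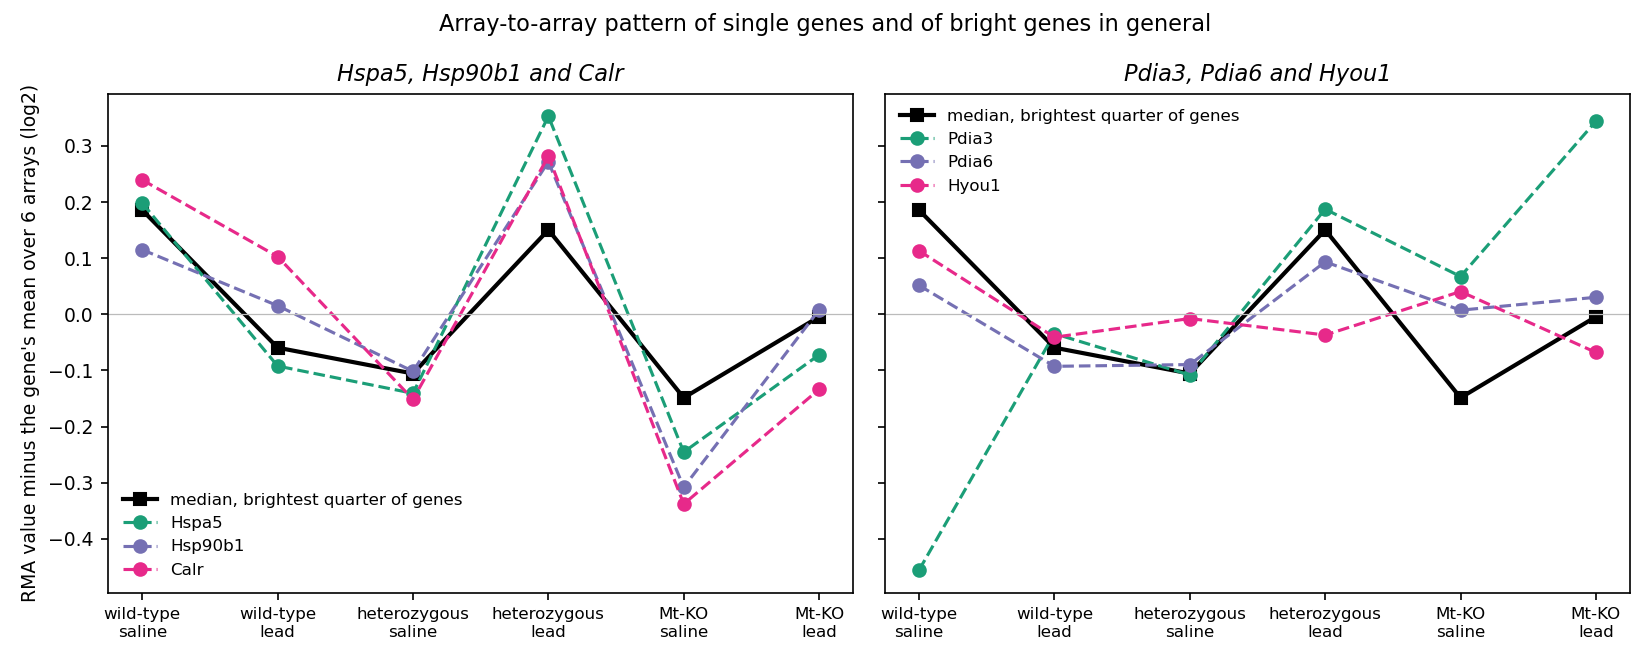
RMA value minus the gene's own mean over the 6 arrays (log2, y axis) on each array (x axis), for 3 genes in each panel, with the median of the brightest 25% of genes as a reference line. The brightest probe sets of Hspa5, Hsp90b1 and Calr rise and fall with that line. Pdia3 starts at -0.46 in wild-type saline and ends at 0.34 in knockout lead.

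Markers of pituitary and choroid plexus, secretory tissues that a brain dissection can hold, were unequal between the pools. Of the 10 pituitary markers 2 were bright enough to be tested. Gh measured 11.48 and Pomc 10.96 in the heterozygous lead pool, where Hspa5, Hsp90b1 and Calr were highest, against 9.29 to 9.83 and 9.36 to 9.73 in the other 5. Their mean relative level was 0.17 there and -1.71 to -1.23 elsewhere. It was lowest (-1.71) in wild-type saline, where Hspa5, Hsp90b1 and Calr were second highest. Of the 12 choroid plexus markers 3 were tested, with a mean relative level from 0.69 in knockout saline to 1.01 in heterozygous lead. Its defining gene Ttr ran from 14.22 to 15.17 in the same pools. The other tested markers took other courses. Clic6 was highest in wild-type lead (10.88) and lowest in knockout lead (10.67). Sostdc1 was highest in heterozygous lead (10.19) but lowest in wild-type lead (9.85). The other markers of both lists were too dim or had no probe set with 1 symbol. Markers of other brain cells were also unequal between the pools. Of the Purkinje and cerebellar markers 10 were tested, and all 10 had lead coefficients above 0 (median 0.45), with 2 past the threshold in limma. Their mean relative level was -0.13 in the wild-type saline pool, where Pdia3 and Pdia4 were lowest, and 0.14 to 0.52 in the other 5. The median lead coefficient was 0.22 for astrocyte markers (9 of 9 above 0) and 0.22 for microglia (6 of 7). For oligodendrocytes it was 0.18 (6 of 8) and for neurons 0.079 (6 of 8), with 0 called in these lists. Other lists did not rise as much. Meninges and fibroblasts had -0.045 (3 of 6), endothelium 0.014 (4 of 7, with 1 called) and blood 0.027 (2 of 2). The part of these tissues and cells in the chaperone values was not tested.

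The disulfide isomerases, which form and rearrange disulfide bonds, differed from one another. Pdia3 encodes ERp57, which works on glycoproteins held by calreticulin and calnexin. Wild types gave 11.26 with saline and 11.68 with lead, heterozygotes 11.60 and 11.90, and knockouts 11.78 and 12.06. Lead was above saline in every genotype, by 0.42, 0.30 and 0.28 as deposited and by 0.60, 0.16 and 0.18 relative to the array medians. Its lead coefficient was 0.33 (SE 0.15, 95% interval 0.035 to 0.63, limma adjusted p = 1). It was 0.41 with GC-RMA and 0.34 with PLIER, the other deposited summaries of these arrays, and it lay between 0.29 and 0.36 with each genotype left out in turn. Without the wild-type arrays it passed (limma adjusted p = 0.00647), in the fit that called 2632 of all 10916 genes. The dimmer Pdia3 probe set gave 0.00011, with GC-RMA values of at most 4.91, and with both averaged the coefficient was 0.17.

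Pdia4 encodes ERp72, an isomerase of the same family. Wild types gave 9.46 with saline and 9.83 with lead, heterozygotes 9.71 and 9.98, and knockouts 9.72 and 9.69. Lead was above saline in wild types and heterozygotes and slightly below it in knockouts. Its lead coefficient was 0.20 (SE 0.11, 95% interval -0.019 to 0.43), and its dimmer probe set gave 0.064. With PLIER its values were 9.98 and 9.99 in wild types and 10.04 and 10.12 in knockouts (log2), and with GC-RMA the knockouts gave 5.29 and 5.42, so the lower knockout lead value is one of RMA. Pdia6 encodes P5, which works with BiP. It lay between 11.92 and 12.11 on the 6 arrays, and its lead coefficient was 0.021 (SE 0.16, 95% interval -0.29 to 0.34). It was -0.12 with GC-RMA. Its window holds a full ERSE, as those of Hspa5 and Calr do.

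Manf encodes a small luminal protein that is secreted when calcium in the organelle falls. Wild types gave 11.06 with saline and 10.47 with lead, heterozygotes 11.02 and 11.15, and knockouts 10.92 and 11.04. The wild-type lead pool was the low one, and the other 5 lay between 10.92 and 11.15. The relative differences were -0.41 in wild types, -0.00035 in heterozygotes and 0.029 in knockouts. Its lead coefficient was -0.11 (SE 0.13, 95% interval -0.37 to 0.15). With GC-RMA the coefficient was 0.037, of the opposite sign. Manf has 1 probe set. The same array was the lowest with GC-RMA (11.99 against 12.18 to 12.56) and with PLIER (10.25 against 10.77 to 10.99, log2).

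Hyou1, Herpud1 and Sdf2l1 stayed within narrow ranges. Hyou1 encodes GRP170, which exchanges the nucleotide bound to BiP. Wild types gave 12.18 with saline and 12.02 with lead, heterozygotes 12.05 and 12.03, and knockouts 12.10 and 11.99. Each lead value lay below each saline value, by little, and the lead coefficient was -0.10 (SE 0.16, 95% interval -0.42 to 0.22), with 0.022 and -0.043 from the other probe sets. The relative differences were 0.028, -0.16 and -0.20. Herpud1 encodes a membrane protein of the degradation machinery. It ranged from 10.82 to 11.02, with a lead coefficient of 0.039 (SE 0.13, 95% interval -0.22 to 0.30) and 0.038 from its dimmer probe set, but -0.12 with GC-RMA. Sdf2l1 encodes a partner of BiP and its DnaJ co-chaperones. Wild types gave 8.65 with saline and 8.70 with lead, heterozygotes 8.72 and 8.76, and knockouts 8.85 and 8.87, all below the lowest mean that was tested, 9.42. Without the brightness limit its lead coefficient was 0.038 (SE 0.092, limma adjusted p = 1).

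**Figure D3:**
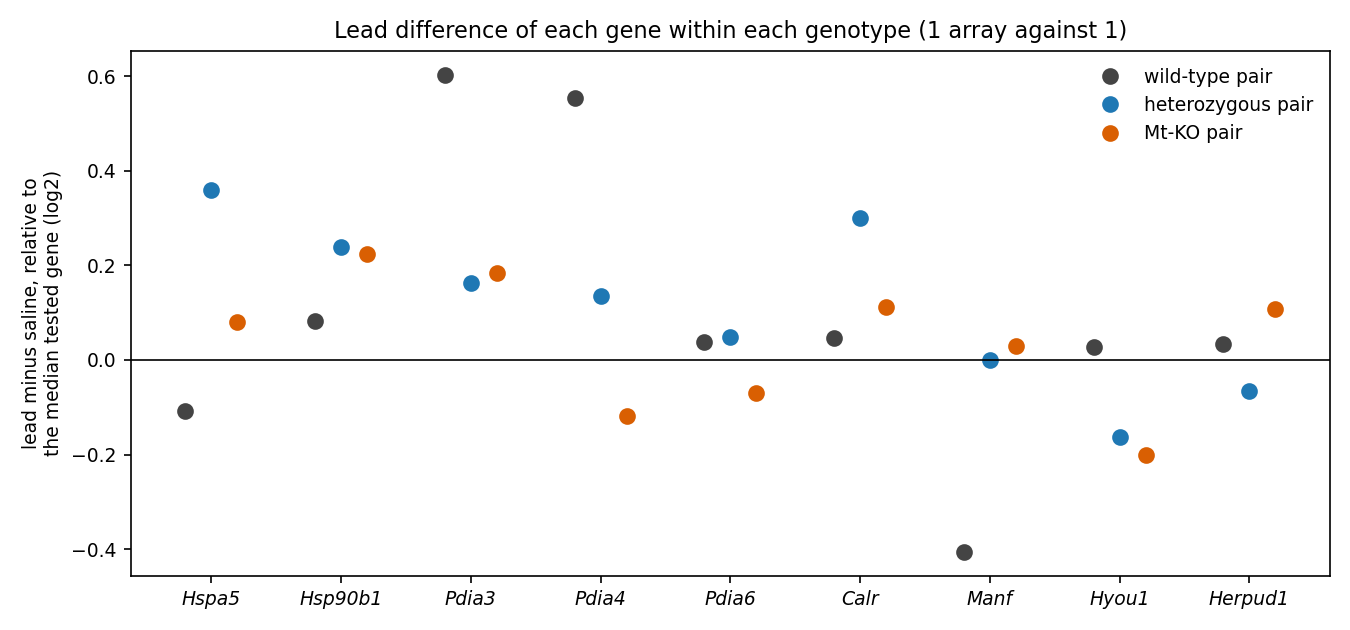
Lead minus saline difference relative to the array medians (log2, y axis) for the 9 tested genes (x axis), with 1 point for each genotype. The wild-type points of Pdia3 (0.60), Pdia4 (0.55) and Manf (-0.41) lie farthest from 0, and Hsp90b1, Pdia3 and Calr have all 3 points above it.

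The genotypes were compared to ask whether the chaperones differed with metallothionein genotype. In the same limma fit, 0 of 9 genes passed for Mt-KO against wild type (2 arrays each, within treatments), beside 0.431% of all genes, with 1 of 9 at an unadjusted p under 0.05, as had 382 of all 10916. For heterozygous against wild type 0 of 9 passed, beside 0.119%, and 0 of 9 had an unadjusted p under 0.05, as had 131 of all 10916. These comparisons share the wild-type arrays. Mt-KO and wild-type arrays did not overlap for 3 of 9 genes, Pdia3, Hsp90b1 and Calr, against 28.9% of all genes. Pdia3 had an Mt-KO coefficient of 0.45 (SE 0.18, 95% interval 0.088 to 0.81, limma adjusted p = 0.801) and a heterozygous one of 0.28 (SE 0.18). Its dimmer probe set gave -0.053 for Mt-KO.

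Calr had an Mt-KO coefficient of -0.41 (SE 0.39, 95% interval -1.18 to 0.36, limma adjusted p = 1), with -0.32 and -0.31 from its other probe sets. The coefficients of Hspa5 and Hsp90b1 were -0.21 (SE 0.29) and -0.22 (SE 0.28). Mt-KO minus wild type was -0.44 and -0.42 for these 2 genes between the saline pools, and 0.020 and -0.0073 between the lead pools. The brightest 25% of genes had medians of -0.33 and 0.060 for the same differences. The dimmer Hsp90b1 probe set gave 0.41, the opposite sign. The 8 neuronal markers tested all had Mt-KO coefficients below 0 (median -0.40), and between the saline pools 0 of 8 lay above the median gene. Their part in the values of Hspa5, Hsp90b1 and Calr was not tested. The other 5 Mt-KO coefficients lay between -0.050 for Hyou1 and 0.22 for Manf.

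Leaving out a wild-type array changed which genotype values passed. Without the wild-type lead array Pdia3 (0.52), Hspa5 (-0.52), Hsp90b1 (-0.44) and Calr (-0.63) passed for Mt-KO, in a fit that called 4380 genes. Without the wild-type saline array Pdia3 (0.38) and Manf (0.57) did, among 2429 genes. For the heterozygotes, Pdia3 (0.35) and Pdia4 (0.32) passed without the wild-type lead array, among 2421 genes, and Manf (0.67) without the wild-type saline array, among 2627.

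A further limma fit tested whether the lead difference depended on the number of intact metallothionein alleles, taken as a linear term. Here 0 of 9 genes passed, beside 3.77% of all genes, and 1 of 9 had an unadjusted p under 0.05, as had 2194 of all 10916. The median coefficient over all genes was -0.15 per allele, and 365 of the 412 genes that passed were below 0. Manf had -0.35 per allele (SE 0.12, 95% interval -0.59 to -0.12, limma adjusted p = 0.0597). Without the wild-type lead array this was 0.037. Manf passed without the heterozygous lead array (-0.35) and without the knockout lead array (-0.75). Over the allele fits with 1 array left out, 15 to 1029 of all 10916 genes passed. Hspa5 had -0.23 (SE 0.21, limma adjusted p = 0.489) and Pdia4 0.20 (SE 0.11, limma adjusted p = 0.269), the highest of the 9.

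Around the chaperones, 9 further lists of the secretory and stress pathways held 149 genes, of which 132 were tested. None passed for lead, Mt-KO or heterozygote in limma, and their median lead coefficient was 0.028. Among the sensors and factors of the unfolded protein response (14 tested, median -0.011), Xbp1, whose spliced form drives chaperone genes, had a lead coefficient of 0.13 (SE 0.17) and the stress factor Atf4 one of -0.12 (SE 0.18). For Xbp1, wild types gave 12.48 with saline and 12.23 with lead, heterozygotes 12.11 and 12.47, and knockouts 11.93 and 12.22. It was high in the same 2 pools as Hspa5, wild-type saline and heterozygous lead, and lowest in the same one, knockout saline. The brightest 25% of genes, which include Xbp1 and Hspa5, took this course in general. Their median deviation from their own means was 0.19 in wild-type saline, 0.15 in heterozygous lead and -0.15 in knockout saline. Whether Xbp1 and Hspa5 were alike beyond their brightness was not tested. The probe set measures total Xbp1 and not its splicing. Ddit3, which encodes CHOP, a factor of sustained stress, lay between 9.97 and 10.15.

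**Figure D4:**
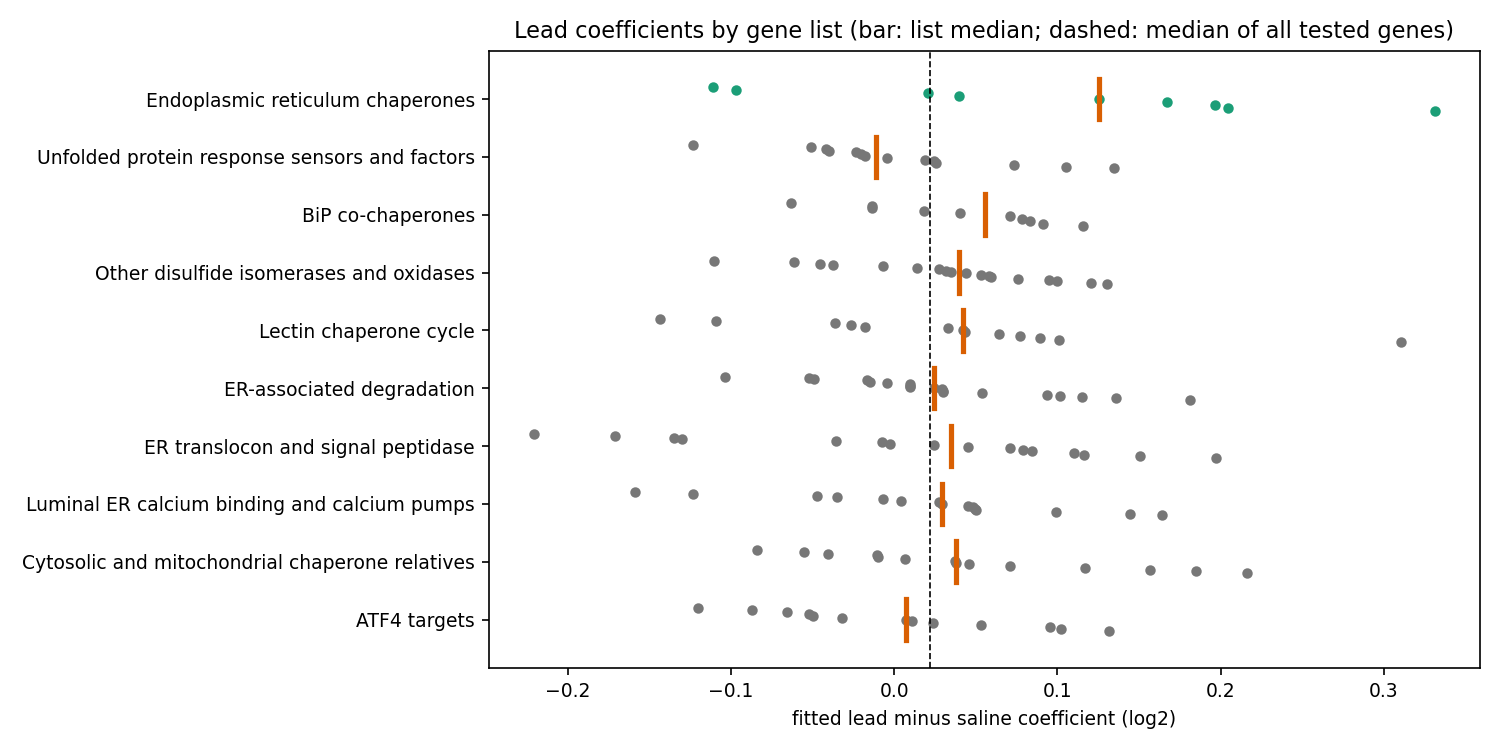
Fitted lead coefficients (log2, x axis) of every tested gene in each list (y axis), with each list's median and the median of all tested genes as reference marks. The chaperones have a median of 0.13 and none of the 9 pathway lists exceeds 0.056, and Pdia3 (0.33) and Canx (0.31) lie farthest to the right.

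The co-chaperones of BiP (10 tested, median 0.056) were led by Dnajb9 (0.12, SE 0.19) and Dnajc3 (0.078, SE 0.13). In the lectin chaperone cycle (13 tested, median 0.042) Canx, calnexin, the membrane partner of calreticulin and Pdia3, had a lead coefficient of 0.31 (SE 0.22) and its relative Clgn one of -0.14 (SE 0.12). For Canx, wild types gave 13.10 with saline and 13.29 with lead, heterozygotes 12.92 and 13.43, and knockouts 13.14 and 13.38, with relative differences of 0.37, 0.37 and 0.14. Like Pdia3, it was higher with lead in each genotype, as deposited and relative to the array medians. Of all genes, 8.55% were so as deposited and 12.7% relative to the medians. Of the 132 tested list genes, 16 were so relative to the medians. Other isomerases and oxidases (18 tested, median 0.039) were led by Txndc11 (-0.11) and Tmx2 (0.10), and degradation genes (19 tested, median 0.025) by Nploc4 (0.14) and Derl1 (0.18). The translocon (16 tested, median 0.035) was led by Ssr4 (-0.22) and Sec61a2 (0.20), and the calcium list (15 tested, median 0.029) by Casq1 (-0.16) and Rcn1 (0.16). Each of these coefficients had a limma adjusted p of 1.

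By the same t statistic, chaperones of other compartments (14 tested, median 0.038) were led by Hspa9 (0.22, SE 0.14) and Hspa2 (0.071, SE 0.12). Hspa9 encodes the mitochondrial HSP70. ATF4 targets (13 tested, median 0.0072) were led by the serine synthesis gene Psat1 (0.13) and by Shmt2 (0.10). For Mt-KO the largest statistics of the 9 lists belonged to Atf6b (0.25), Dnajc3 (-0.11), Creld2 (0.20), Clgn (-0.29), Ubxn4 (-0.32), Srprb (0.34), Ryr2 (-0.24), Hspa2 (0.28) and Shmt2 (0.15), each with a limma adjusted p of 1.

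In the allele fit 6 of the 132 genes passed (4.55%, near the share of all genes), all below 0. They were Ern1, which encodes the sensor IRE1 (-0.39, limma adjusted p = 0.0123), Dnajc3 (-0.42, limma adjusted p = 0.0156), Creld2, a stress-induced luminal protein (-0.34, limma adjusted p = 0.0377), Hspa2 (-0.48, limma adjusted p = 0.00215), and the amino acid synthesis genes Psph (-0.35, limma adjusted p = 0.0464) and Aldh18a1 (-0.40, limma adjusted p = 0.0333). After centring the arrays on their medians none of the 6 passed, with limma adjusted p from 0.0945 to 0.304. Leaving out the arrays singly, the adjusted p stayed under 0.05 in 3 of 6 fits for Ern1, 2 for Dnajc3, 2 for Creld2, 3 for Hspa2, 1 for Psph and 1 for Aldh18a1. None of the 6 passed in limma when either wild-type array was left out. With the other array summaries and settings tried, Ern1, Dnajc3 and Aldh18a1 passed in 0 of 7, Creld2 in 1, Psph in 2 and Hspa2 in 4. The relative differences of Ern1 were -0.32 in wild types, 0.15 in heterozygotes and 0.19 in knockouts, and those of Dnajc3 were -0.27, 0.16 and 0.30.

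Genes with the promoter element were also read as a group whatever their function. Of 49 genes with an ERSE or ERSE-II in the window 24 were tested, and 5 of these were the chaperones printed above with a full element. The other 19 had a median lead coefficient of 0.028, with 12 above 0, and 0 passed for lead, Mt-KO or heterozygote in limma. Their lead coefficients ran from -0.15 for Krtcap2, an oligosaccharyltransferase subunit, to 0.31 for Canx, and included the degradation ligase gene Syvn1 (0.030) and the BiP co-chaperone gene Dnajb11 (0.083). In the allele fit 3 of the 24 passed, Creld2, Dnajc3 and Lrif1 (-0.64), beside 3.77% of all genes. None of the 3 passed in limma when either wild-type array was left out. Lrif1, Krtcap2, Syvn1 and Dnajb11 were named after their values were seen.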

How the data were processed

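Each of the 6 arrays appears in 3 deposited columns, 1 for each summary algorithm, so the 18 columns are not 18 samples. The submitters' processing notes name Partek, RMA, GCRMA and PLIER, without versions. The RMA and GC-RMA columns hold log2 values as the authors deposited them. The PLIER columns hold deposited intensity values on a linear scale, to which 16 was added before log2. RMA served as the main summary. Per the labels' protocols the labelling kit is one for whole-transcript arrays, although the probe sets are those of a 3' array.

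Of 45101 probe sets 34958 had 1 gene symbol in the platform annotation. Genes in the upper 60% by mean RMA value of their brightest probe set were tested with limma 3.58.1 under R 4.3.3, using lmFit and a trended eBayes, two-sided, with Benjamini-Hochberg adjustment over 10916 genes and a threshold of 0.05. Both fits left 2 residual degrees of freedom. The prior was estimated as infinite, so each SE is that typical of the gene's brightness, and p-values measure what the additive model left over, not the spread between pools of 1 kind. The fits were tested on simulated data. Alternatives were the other summaries, quantile normalization, centring on array medians, no brightness limit, the mean over probe sets, no trend, and leaving out arrays or pairs. The chaperones and lists were chosen with earlier results of these data known. Named genes were all 10 chaperones and, from each list, the genes that passed, the 2 with the largest lead statistic and the 1 with the largest Mt-KO statistic, plus the 5 most like Hspa5.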

Additional observations from a re-analysis of the deposited data

Results flagged for a closer look

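For 6 chaperones the relative lead difference had opposite signs in the genotypes, in a comparison of single arrays in which the difference was not tested. From the highest to the lowest genotype it spanned 0.47 for Hspa5, 0.67 for Pdia4 and 0.12 for Pdia6. It spanned 0.43 for Manf, 0.23 for Hyou1 and 0.17 for Herpud1. These spans are those of the brightest probe sets. For Hspa5, 1 other probe set was above 0 in all 3 genotypes (0.12, 0.20 and 0.10 in wild types, heterozygotes and knockouts). The remaining Hspa5 probe set gave 0.13, -0.13 and -0.20, so both were above 0 in wild types. Pdia4 had the widest span, from 0.55 in wild types to -0.12 in knockouts, with RMA. With PLIER its values were 9.98 and 9.99 in wild types and 10.04 and 10.12 in knockouts (log2), and with GC-RMA the knockouts gave 5.29 and 5.42, so there the knockout lead value was the higher one. Manf came from -0.41 in wild types, with heterozygotes and knockouts near 0.

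In the limma fit with the number of intact alleles, 6 genes of the pathway lists and Lrif1 passed an adjusted p of 0.05 with a lower lead difference per allele. Lrif1 is in none of those lists; its promoter window holds an ERSE-II, and it was named after its values were seen. The coefficients were -0.39 for Ern1, -0.42 for Dnajc3, -0.34 for Creld2, -0.48 for Hspa2, -0.35 for Psph, -0.40 for Aldh18a1 and -0.64 for Lrif1. 3.77% of all genes passed in that fit, and the median over all genes was -0.15. None of the 9 chaperones passed in it. Leaving out the arrays singly, the adjusted p stayed under 0.05 in 3 of 6 fits for Ern1, 2 for Dnajc3, 2 for Creld2, 3 for Hspa2, 1 for Psph and 1 for Aldh18a1, and 4 for Lrif1. None of the 7 passed in limma when either wild-type array was left out. Ern1, Dnajc3 and Aldh18a1 passed in 0 of the 7 other summaries and settings tried. Creld2 passed in 1 of them, Psph in 2, Hspa2 in 4 and Lrif1 in 4.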

How the results depend on the processing

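The counts for lead, Mt-KO, heterozygote and the allele fit were 13, 47, 13 and 412 with RMA. They were 0, 0, 0 and 0 with GC-RMA, 13, 68, 10 and 142 with PLIER, 0, 1, 0 and 1 with quantile normalization, 0, 7, 0 and 20 with centring on array medians, 0, 6, 0 and 92 with no brightness limit, 0, 10, 0 and 508 with the mean over probe sets and 0, 4, 0 and 79 with no trend. Leaving out arrays or pairs gave 1 to 2632 for lead, 8 to 4380 for Mt-KO, 3 to 2627 for heterozygote and 15 to 1029 for the allele fit. Of the 9 chaperones 0 passed in each comparison under each of these settings, except that Manf passed in the allele fit with the mean over probe sets (1 of 9). Manf has 1 probe set, so its own values were the same in that setting and only those of other genes changed. With arrays left out 0 to 3 passed for lead, 0 to 4 passed for Mt-KO, 0 to 2 passed for heterozygote and 0 to 1 passed for the allele fit.

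The following coefficients changed sign. With GC-RMA they were Pdia6 -0.12, Manf 0.037, Herpud1 -0.12, Xbp1 -0.018, Txndc11 0.046, Clgn 0.11, Casq1 0.076 for lead, Pdia4 -0.0063, Herpud1 -0.083 for Mt-KO, Hsp90b1 -0.00085, Pdia6 -0.14, Herpud1 -0.075 for heterozygote and Calr 0.22, Hyou1 0.039 per allele. With PLIER they were Pdia6 -0.0065, Herpud1 -0.029 for lead, Herpud1 -0.10 for Mt-KO, Hsp90b1 -0.017, Pdia4 -0.027, Herpud1 -0.045 for heterozygote and Pdia4 -0.037 per allele. With quantile normalization they were Pdia6 -0.020 for lead, Hyou1 0.0097 for Mt-KO, Calr 0.026 for heterozygote and Pdia6 0.091, Calr 0.13, Hyou1 0.15 per allele. With centring on array medians they were Pdia6 0.053, Hyou1 0.11 per allele. With the mean over probe sets they were Clgn 0.026 for lead, Hsp90b1 0.10, Pdia4 -0.046, Pdia6 -0.011, Herpud1 -0.039, Dnajc3 0.0041 for Mt-KO, Pdia6 -0.029 for heterozygote and Hyou1 0.066 per allele. With arrays or pairs left out in turn the ranges that crossed 0 were Atf4 -0.21 to 0.010, Dnajc3 -0.079 to 0.35, Herpud1 -0.040 to 0.13, Hspa2 -0.20 to 0.28, Hspa5 -0.058 to 0.33, Manf -0.23 to 0.13, Pdia6 -0.061 to 0.10, Tmx2 -0.0004 to 0.24 for lead, Creld2 -0.12 to 0.52, Dnajc3 -0.51 to 0.29, Herpud1 -0.11 to 0.17, Hsp90b1 -0.44 to 0.0070, Hspa2 -0.13 to 0.68, Hspa5 -0.52 to 0.10, Manf -0.14 to 0.57, Pdia4 -0.11 to 0.24, Pdia6 -0.084 to 0.16, Ryr2 -0.50 to 0.026, Shmt2 -0.047 to 0.35 for Mt-KO, Calr -0.33 to 0.12, Herpud1 -0.069 to 0.21, Hsp90b1 -0.20 to 0.24, Hspa5 -0.26 to 0.36, Manf -0.042 to 0.67, Pdia6 -0.10 to 0.15 for heterozygote and Calr -0.47 to 0.13, Hsp90b1 -0.47 to 0.052, Hspa5 -0.67 to 0.20, Hyou1 -0.11 to 0.062, Manf -0.75 to 0.037, Pdia3 -0.014 to 0.16, Pdia4 -0.013 to 0.41, Pdia6 -0.21 to 0.041 per allele. The cause was not tested. No paired analysis was possible because each combination has 1 pool and the labels give no replicate numbers; the lead coefficient itself compares arrays within genotypes. Each value rests on 6 pools, and dim probe sets such as that of Sdf2l1 limit what their arrays can show.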
